A study of Mus musculus with 15 samples.

Results

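Matricellular proteins and matrix receptors were followed at the mRNA level in mouse bone marrow-derived macrophages (BMDMs) with and without STAT5. Of the 55385 genes in the count table, 10 were taken, by gene symbol: the secreted proteins Spp1, Thbs1, Vcan, Tnc and Fn1, the matrix enzyme Lox, and the cell surface receptors Sdc1, Sdc3, Sdc4 and Cd44. All are noncollagen genes of the extracellular matrix (ECM) or of its binding at the cell surface. The rule that names them uses no measured value, but they were chosen with earlier results of these data known. The paper lists Lox and Vcan in a gene set enriched without STAT5, and Tnc as increased. Counts of called members beside the share of all genes are therefore a description.

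Matricellular proteins such as osteopontin, thrombospondin-1 and tenascin-C are secreted into the ECM, where they act mainly as signals to cells rather than as structural parts. Syndecans are transmembrane proteoglycans whose heparan sulfate chains bind matrix proteins and growth factors, and CD44 is the main receptor for the matrix polysaccharide hyaluronan. Tumor-associated macrophages are known to secrete several of these proteins, and STAT5 is a transcription factor activated by GM-CSF.

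BMDMs of 6 wk old BALB/c mice came from 2 STAT5fl/fl and 3 STAT5cKO animals, and the cells of each mouse were cultured for 2 h in DMEM, in 20 ng/mL rmGM-CSF or in medium conditioned by the 4T1 mouse mammary tumor line (4T1 CM). This gave 15 libraries in 6 groups, the STAT5fl/fl groups with n = 2 and the STAT5cKO groups with n = 3. Both genotypes carry the floxed Stat5 allele, and STAT5cKO mice were made by crossing in the Csf1r-iCre transgene, whose deletion is not restricted to tumor-associated macrophages. A further STAT5fl/fl replicate was removed by the study at quality control and was not analysed here. The 4T1 CM is a mixture of secreted factors from serum-starved tumor cells, whereas rmGM-CSF is a single recombinant cytokine. Libraries with the same mouse number were treated as coming from the same animal: 112 and 113 for STAT5fl/fl, and 114, 115 and 116 for STAT5cKO.

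Total counts per library ranged from 16016736 to 22883108, so that 3 counts, taken as the floor of detection, corresponded to between 0.131 and 0.187 CPM (the count of a gene scaled to the total count of its library). Stat5a and Stat5b, the targeted genes, had at least 637 and 977 counts in every STAT5fl/fl library and at most 3 and 4 counts in any STAT5cKO library. All 8 macrophage markers examined passed the filter on low counts, from Mertk at 12.5 to 43.1 CPM to Lyz2 at 17017 to 34431 CPM. Their summed level, most of it Lyz2, was 24624 to 29833 CPM in STAT5fl/fl and 31104 to 46591 CPM in STAT5cKO libraries. Of 10 fibroblast markers 4 passed this filter, of 7 epithelial markers 1, and of the neutrophil, platelet, dendritic cell, lymphocyte and endothelial markers 1 gene each (S100a8, Itga2b, Zbtb46, Cd4 and Kdr). Kdr was the highest of these, at 53.5 to 126 CPM. RNA was measured on whole cultures, so fewer cells of a type and less RNA per cell cannot be told apart.

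Within a library, levels of different genes were compared as reads per kilobase of summed exon length, scaled to the library total (RPKM). Spp1, which encodes osteopontin, an adhesive phosphoprotein that binds integrins and CD44, ranked first in all 6 groups, from 532 ± 16.5 (SD) RPKM in STAT5fl/fl BMDMs with DMEM to 1210 ± 132 RPKM in STAT5cKO BMDMs with 4T1 CM. With DMEM, the receptors came next in both genotypes, in the order Sdc3, Cd44, Sdc4 and Sdc1, with no overlap between neighbors across libraries. Their means in STAT5fl/fl BMDMs were 106, 90.9, 53.7 and 21.3 RPKM. With rmGM-CSF, Sdc4 moved to the second place, at 411 ± 45.7 RPKM in STAT5fl/fl and 211 ± 7.99 RPKM in STAT5cKO BMDMs. Thbs1 lay at 4.76 and 5.59 RPKM with DMEM and at 64.4 ± 7.06 and 167 ± 19.1 RPKM with 4T1 CM in STAT5fl/fl and STAT5cKO BMDMs, where its libraries overlapped those of Sdc1 and of Cd44, respectively. Fn1, Lox, Vcan and Tnc stayed under 1.6 RPKM in every library.

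**Figure D1:**
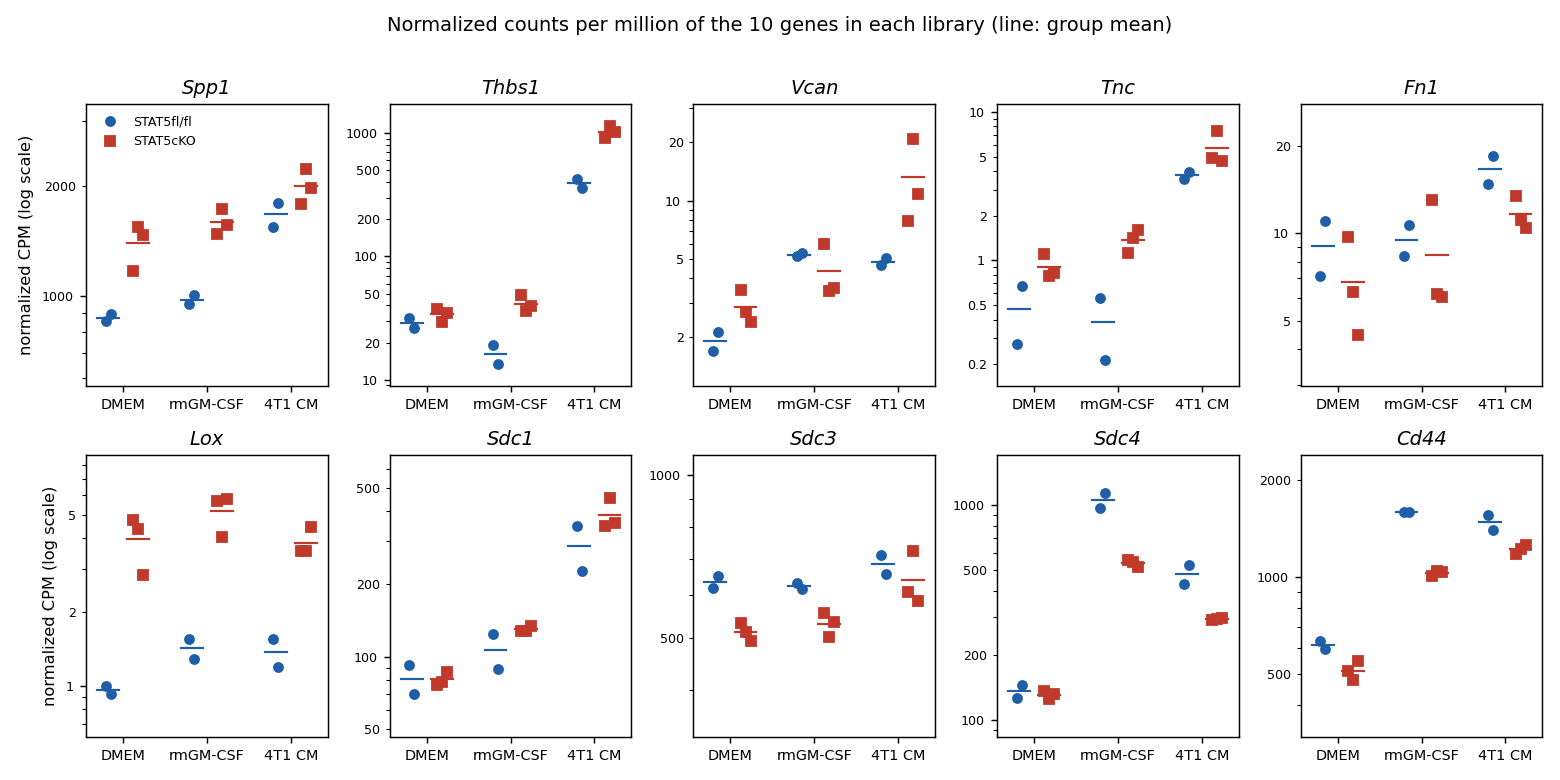
Normalized CPM (log axis, a scale of its own for each gene) of the 10 genes in each library, by treatment (x axis) and genotype (blue circles, STAT5fl/fl, n = 2; red squares, STAT5cKO, n = 3), with a line at each group mean. With rmGM-CSF and 4T1 CM, Sdc4 and Cd44 lie lower in every STAT5cKO library than in every STAT5fl/fl library, and Thbs1 lies higher.

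All 10 genes passed the filter, a CPM over 1 in at least 2 libraries. Tnc stayed under 1 CPM in all STAT5fl/fl libraries with DMEM and rmGM-CSF and passed through other groups. Genes were called at an adjusted p-value under 0.01 (edgeR quasi-likelihood test, Benjamini-Hochberg adjustment over the 13005 genes tested), and each comparison is given with the share of all tested genes called in it.

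The first question was how loss of STAT5 altered these genes within a treatment. With DMEM, Spp1 and Lox were higher in STAT5cKO BMDMs, 2 of the 10 genes, where 2.49% of all tested genes were called. With rmGM-CSF, 5 of the 10 were called against a background of 9.80%: Spp1, Thbs1 and Lox were higher and Sdc4 and Cd44 lower. With 4T1 CM, 5 of the 10 were called against 7.70%: Thbs1, Vcan and Lox were higher and Sdc4 and Cd44 lower. The median log2 fold change of the 10 genes was 0.11, 0.06 and 0.34 with DMEM, rmGM-CSF and 4T1 CM, and that of all tested genes was 0.0013, 0.00048 and 0.0098. Summed fibroblast markers were also higher in all STAT5cKO libraries (10.95 to 18.2 CPM) than in all STAT5fl/fl libraries (5.95 to 9.68 CPM), and their part in these differences was not tested.

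**Figure D2:**
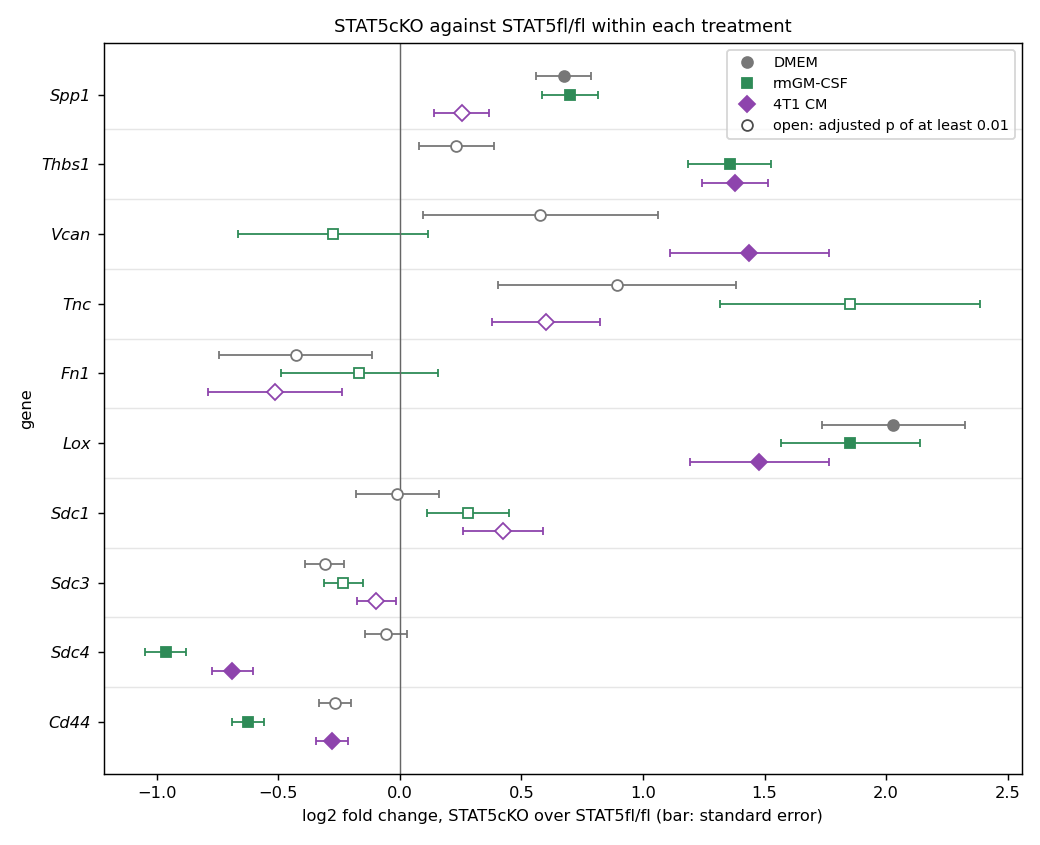
Log2 fold change of STAT5cKO over STAT5fl/fl BMDMs (x axis, bars are standard errors of the model) for each gene with DMEM (gray circles), rmGM-CSF (green squares) and 4T1 CM (purple diamonds), filled where the adjusted p-value was under 0.01. Spp1, Thbs1, Tnc and Lox lie right of 0, up to 2.03 for Lox with DMEM, and Fn1, Sdc3, Sdc4 and Cd44 left of it, down to -0.96 for Sdc4 with rmGM-CSF.

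The second question was how the treatments acted within a genotype. Against DMEM, rmGM-CSF altered 3 of the 10 genes in STAT5fl/fl BMDMs (Sdc4 and Cd44 higher, Thbs1 lower), where 28.5% of all tested genes were called, and 3 in STAT5cKO BMDMs (Sdc1, Sdc4 and Cd44 higher), against 23.5%. With 4T1 CM, 6 of the 10 rose in STAT5fl/fl BMDMs, against a background of 37.4%, and 8 in STAT5cKO BMDMs, against 37.6%. The 6 were Spp1, Thbs1, Tnc, Sdc1, Sdc4 and Cd44, and Vcan and Sdc3 were called in addition in STAT5cKO BMDMs. The responses of Vcan and Sdc3 were not called different between the genotypes (interaction adjusted p = 0.582 and 0.427). The median log2 fold change of the 10 genes with rmGM-CSF was 0.28 in STAT5fl/fl and 0.49 in STAT5cKO BMDMs, and that of all tested genes was -0.0062 and -0.0035. With 4T1 CM the median of the 10 genes was 1.31 in STAT5fl/fl and 1.21 in STAT5cKO BMDMs, and that of all tested genes was 0.015 and 0.013. Cdh1, an epithelial marker, reached 4.33 CPM with 4T1 CM. Epcam, Krt8, Krt18, Krt14, Cldn4 and Cldn7, the other markers of the 4T1 tumor cells examined, had at most 4 counts in any library. Summed epithelial markers in STAT5fl/fl BMDMs were 0 to 0.136 CPM with DMEM, 1.18 to 1.43 with rmGM-CSF and 3.21 to 4.33 with 4T1 CM. In STAT5cKO BMDMs these sums were 0 to 0.043, 0 to 0.049 and 1.27 to 2.22 CPM. The comparisons of both treatments with DMEM share their DMEM libraries.

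Set directly against each other, 4T1 CM gave higher Spp1, Thbs1, Tnc and Sdc1 and lower Sdc4 than rmGM-CSF in STAT5fl/fl BMDMs, 5 of the 10 genes against a background of 30.5%. In STAT5cKO BMDMs, Thbs1, Vcan, Tnc, Sdc1, Sdc3 and Cd44 were higher with 4T1 CM and Sdc4 was lower, 7 of the 10 against 34.1%. The interaction of genotype and treatment, which asks whether the response differed between the genotypes, was called for Thbs1 and Sdc4 with rmGM-CSF, 2 of the 10 against 3.11%, and for the same genes with 4T1 CM, 2 of the 10 against 1.27%. Both interactions rest on the same DMEM libraries.

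**Figure D3:**
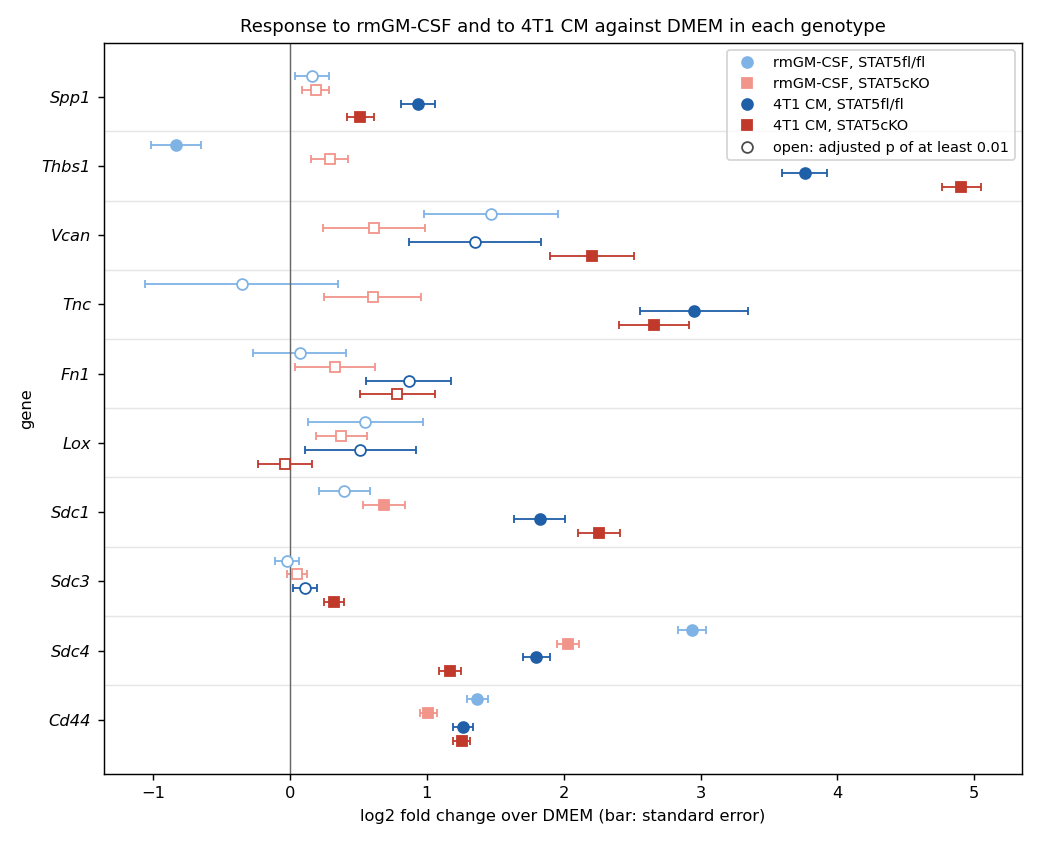
Log2 fold change over DMEM (x axis, bars are standard errors of the model) for each gene after rmGM-CSF (light symbols) and 4T1 CM (dark symbols) in STAT5fl/fl (blue circles) and STAT5cKO BMDMs (red squares), filled where the adjusted p-value was under 0.01. The Thbs1 and Tnc points lie farthest right for 4T1 CM, those of Sdc4 for rmGM-CSF, and the Thbs1 response to rmGM-CSF is -0.83 in STAT5fl/fl and 0.29 in STAT5cKO BMDMs.

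Upstream sequences were examined for the members with an entry in the RefSeq promoter table of GRCm38.p6, 7 of the 10 (no window for Fn1, Thbs1 or Lox). The 250 bases before the annotated start are shown for Sdc4 and Cd44, whose levels had the highest correlation across libraries among the 4 receptors, for Sdc1, which shares a motif match with Sdc4, and for Tnc, whose window holds TATAAA. In capitals are matches to the NF-kB consensus (Sdc4 and Sdc1) and to TATAAA (Tnc), on either strand. For Tnc the outer of 2 annotated starts is shown.
Sdc4, chr2:164443189-164443438, minus strand: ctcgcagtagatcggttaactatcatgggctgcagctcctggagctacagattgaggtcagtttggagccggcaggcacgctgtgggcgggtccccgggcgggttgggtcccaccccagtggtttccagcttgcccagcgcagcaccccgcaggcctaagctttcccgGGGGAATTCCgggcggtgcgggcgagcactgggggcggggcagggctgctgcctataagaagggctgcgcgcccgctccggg
Cd44, chr2:102901666-102901915, minus strand: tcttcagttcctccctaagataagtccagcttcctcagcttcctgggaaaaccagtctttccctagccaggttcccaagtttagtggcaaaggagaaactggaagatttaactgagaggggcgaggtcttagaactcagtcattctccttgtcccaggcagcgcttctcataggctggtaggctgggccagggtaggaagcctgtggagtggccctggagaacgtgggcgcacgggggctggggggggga
Sdc1, chr12:8771146-8771395, plus strand: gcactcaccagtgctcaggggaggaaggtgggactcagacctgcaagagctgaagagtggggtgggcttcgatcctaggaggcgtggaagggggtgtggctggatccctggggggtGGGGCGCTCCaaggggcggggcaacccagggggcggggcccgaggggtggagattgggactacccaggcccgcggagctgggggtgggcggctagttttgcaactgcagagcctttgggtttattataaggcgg
Tnc, chr4:64047016-64047265, minus strand: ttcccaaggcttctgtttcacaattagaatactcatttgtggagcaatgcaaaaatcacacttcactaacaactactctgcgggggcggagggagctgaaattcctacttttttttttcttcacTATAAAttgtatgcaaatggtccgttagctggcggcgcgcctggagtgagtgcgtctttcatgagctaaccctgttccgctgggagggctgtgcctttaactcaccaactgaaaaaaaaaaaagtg

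The RefSeq start of Sdc4 lies inside the gene as counted here, whose annotated end is further upstream. The Sdc1 window ends at 8771395, past the start of the counted gene at 8771323, and so overlaps that gene in part. The windows of Sdc4 and Sdc1 had a GC content of 68.0% and 66.0%, that of Cd44 56.4% and that of Tnc 44.8%, against a median of 52.4% over the 32851 windows in the table. The NF-kB consensus was matched in Sdc4 with its first base at -82 and in Sdc1 at -134, and 7.25% of all windows hold a match. TATAAA, held by 12.4% of all windows, was matched in Tnc with its first base at -126 from the outer start and -205 from the inner. In Spp1 it was matched at -211 from the outer start and was absent before the inner start. The STAT motif TTCNNNGAA, the AP-1 motif TGANTCA and the cyclic AMP motif TGACGTCA, found in 7.02%, 6.75% and 1.55% of all windows, had no match in the windows of these 7 genes. A match is a run of letters, and neither binding nor use of a site was measured.

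Among the secreted proteins, thrombospondin-1 (Thbs1, ENSMUSG00000040152, GRCm38 chromosome 2, 118111876 to 118127133, plus strand), a trimeric glycoprotein that binds CD36 and CD47 and restrains angiogenesis, responded most to 4T1 CM. With DMEM its level was 31.6 and 26.1 CPM in STAT5fl/fl mice 112 and 113, and 37.7, 29.7 and 34.5 CPM in STAT5cKO mice 114, 115 and 116. With rmGM-CSF it was 19.2 and 13.4 CPM in STAT5fl/fl and 48.9, 36.1 and 39.5 CPM in STAT5cKO BMDMs. With 4T1 CM it was 421 and 361 CPM in STAT5fl/fl and 904, 1136 and 1011 CPM in STAT5cKO BMDMs. The genotypes overlapped with DMEM and were separate with both treatments, STAT5cKO being higher.

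The log2 fold change of Thbs1 with 4T1 CM was 3.76 ± 0.17 (SE, adjusted p = 8.63e-12, 13.6-fold) in STAT5fl/fl and 4.91 ± 0.14 (adjusted p = 1.87e-14, 30.0-fold) in STAT5cKO BMDMs. With rmGM-CSF, Thbs1 fell in STAT5fl/fl BMDMs (-0.83 ± 0.18, adjusted p = 0.0016), and the difference in STAT5cKO BMDMs was 0.29 ± 0.13 (adjusted p = 0.108). Both interactions were called, at 1.12 ± 0.23 with rmGM-CSF (adjusted p = 0.00531) and 1.15 ± 0.20 with 4T1 CM (adjusted p = 0.00368). Between the genotypes, Thbs1 was higher in STAT5cKO BMDMs by 1.36 ± 0.17 with rmGM-CSF (adjusted p = 2.05e-05) and by 1.38 ± 0.14 with 4T1 CM (adjusted p = 3.34e-06), calls that held in every alternative run. The interaction with rmGM-CSF was not called without mouse 112, 113 or 116 (adjusted p = 0.0205, 0.0655 and 0.0224), and that with 4T1 CM not without mouse 112, 113, 115 or 116 (0.031, 0.0343, 0.0157 and 0.0211). The fall with rmGM-CSF was not called without mouse 113 (adjusted p = 0.0356).

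Osteopontin (Spp1, ENSMUSG00000029304, GRCm38 chromosome 5, 104435118 to 104441050, plus strand) was higher without STAT5 with DMEM and rmGM-CSF. With DMEM its level was 857 and 896 CPM in STAT5fl/fl and 1173, 1548 and 1474 CPM in STAT5cKO BMDMs. With rmGM-CSF it was 954 and 1006 CPM in STAT5fl/fl and 1480, 1730 and 1567 CPM in STAT5cKO BMDMs. After 4T1 CM the level was 1544 and 1801 CPM in STAT5fl/fl and 1789, 2221 and 1972 CPM in STAT5cKO BMDMs. The genotypes did not overlap with DMEM or rmGM-CSF, and overlapped with 4T1 CM, where the STAT5fl/fl level of mouse 113 lay above that of STAT5cKO mouse 114.

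The genotype difference of Spp1 was 0.67 ± 0.11 with DMEM (adjusted p = 0.00185) and 0.70 ± 0.11 with rmGM-CSF (adjusted p = 2.9e-04), and 0.25 ± 0.11 with 4T1 CM (adjusted p = 0.146). It was not called with DMEM without mouse 112, 113 or 116 (adjusted p = 0.0447, 0.0401 and 0.0158), nor with rmGM-CSF without mouse 112 (0.0135). Spp1 rose with 4T1 CM by 0.93 ± 0.12 in STAT5fl/fl (adjusted p = 7.3e-06) and by 0.51 ± 0.10 in STAT5cKO BMDMs (adjusted p = 3.74e-04). The difference between these responses, -0.42 ± 0.16, missed the threshold (adjusted p = 0.209). Against rmGM-CSF, 4T1 CM gave higher Spp1 in STAT5fl/fl BMDMs (0.77 ± 0.12, adjusted p = 7.77e-05), a call lost without mouse 113 (adjusted p = 0.0153). In STAT5cKO BMDMs that difference was 0.32 ± 0.10 (adjusted p = 0.0133), called with the mouse as a block (0.32, adjusted p = 1.71e-04).

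Tenascin-C (Tnc, ENSMUSG00000028364, GRCm38 chromosome 4, 63959785 to 64047015, minus strand), a large hexameric glycoprotein of injured and remodeling tissue, was expressed at a low level that rose with 4T1 CM. In 4T1 CM it had 3.55 and 3.97 CPM in STAT5fl/fl and 4.92, 7.51 and 4.71 CPM in STAT5cKO BMDMs. With DMEM it had 0.273 and 0.674 CPM (6 and 16 counts) in STAT5fl/fl and 1.10, 0.783 and 0.823 CPM in STAT5cKO BMDMs. With rmGM-CSF it had 0.560 and 0.214 CPM (9 and 4 counts) in STAT5fl/fl and 1.13, 1.43 and 1.596 CPM in STAT5cKO BMDMs. STAT5cKO libraries lay above the STAT5fl/fl libraries of the same treatment in all 3 treatments. The genotype difference was 0.89 ± 0.49 (DMEM), 1.85 ± 0.54 (rmGM-CSF) and 0.60 ± 0.22 (4T1 CM), and none of these passed the threshold (adjusted p = 0.306, 0.0243 and 0.0812). With rmGM-CSF the Tnc difference was called by the likelihood ratio test (adjusted p = 5.03e-04), by DESeq2 (0.0028) and in a fit to those libraries alone (0.00891). The response to 4T1 CM was 2.95 ± 0.40 in STAT5fl/fl (adjusted p = 8.68e-06) and 2.66 ± 0.26 in STAT5cKO BMDMs (adjusted p = 1.43e-07).

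Versican (Vcan, ENSMUSG00000021614, GRCm38 chromosome 13, 89655312 to 89742509, minus strand), a chondroitin sulfate proteoglycan that binds hyaluronan, was higher in STAT5cKO BMDMs with 4T1 CM. With 4T1 CM it had 4.67 and 5.05 CPM in STAT5fl/fl and 7.89, 20.8 and 10.9 CPM in STAT5cKO BMDMs. In DMEM the level was 1.68 and 2.11 CPM in STAT5fl/fl and 3.49, 2.70 and 2.39 CPM in STAT5cKO BMDMs, and with rmGM-CSF 5.17 and 5.36 CPM against 5.98, 3.43 and 3.58 CPM. Mouse 115 stood above the other STAT5cKO libraries with 4T1 CM, and the genotypes overlapped with rmGM-CSF. The genotype difference with 4T1 CM was 1.44 ± 0.33 (adjusted p = 0.00625). Without mouse 115 it was 0.95 (adjusted p = 0.0107), without mouse 112 1.38 (0.0844), without mouse 113 1.49 (0.0886), and in limma voom, with a random mouse effect, 1.31 (0.0185). A fit to the 4T1 CM libraries alone gave 1.43 (0.0574). Vcan rose with 4T1 CM in STAT5cKO BMDMs (2.21 ± 0.31, adjusted p = 1.09e-05). In STAT5fl/fl BMDMs it had log2 fold changes of 1.47 ± 0.49 with rmGM-CSF (adjusted p = 0.0236) and 1.35 ± 0.48 with 4T1 CM (adjusted p = 0.0284), both above all DMEM libraries. Both were called by the likelihood ratio test (adjusted p = 6.74e-04 and 0.00142) and by DESeq2 (3.7e-04 and 8.54e-04). Fits to the compared libraries alone also called them (1.27e-04 and 7.96e-04). With the mouse as a block neither was called (adjusted p = 0.0109 and 0.0135).

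Fibronectin (Fn1, ENSMUSG00000026193, GRCm38 chromosome 1, 71585520 to 71653200, minus strand), an adhesive glycoprotein bound by integrins, was not called in any comparison. After 4T1 CM the level was 14.8 and 18.5 CPM in STAT5fl/fl and 13.4, 11.1 and 10.4 CPM in STAT5cKO BMDMs. In DMEM it had 7.14 and 10.997 CPM in STAT5fl/fl and 9.74, 6.26 and 4.49 CPM in STAT5cKO BMDMs, and with rmGM-CSF 8.34 and 10.7 CPM against 13.0, 6.20 and 6.07 CPM. The genotypes overlapped with DMEM and rmGM-CSF and were separate with 4T1 CM, STAT5fl/fl being higher (-0.51 ± 0.27, adjusted p = 0.237). Mouse 114 was the highest STAT5cKO mouse under all 3 treatments, and libraries with 4T1 CM lay above those with DMEM in each mouse. The log2 fold change with 4T1 CM against DMEM was 0.87 ± 0.31 in STAT5fl/fl (adjusted p = 0.0284) and 0.78 ± 0.27 in STAT5cKO BMDMs (adjusted p = 0.0257). With the mouse as a block it was 0.88 (adjusted p = 1.97e-04) and 0.81 (adjusted p = 1.45e-04), and both were called. Against rmGM-CSF the blocked differences, 0.81 in STAT5fl/fl and 0.51 in STAT5cKO BMDMs, were called as well (adjusted p = 7.89e-04 and 0.00754). Without mouse 114, 4T1 CM was called higher for Fn1 against DMEM in STAT5fl/fl and STAT5cKO BMDMs (0.87 and 1.01, adjusted p = 0.00159 and 0.00154) and against rmGM-CSF (0.80 and 0.81, adjusted p = 0.00464 and 0.0088).

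Lysyl oxidase (Lox, ENSMUSG00000024529, GRCm38 chromosome 18, 52516067 to 52529867, minus strand), the enzyme that crosslinks collagen and elastin, had the largest genotype difference of the 10 genes with DMEM. With DMEM it had 1.0 and 0.927 CPM (22 counts in each) in STAT5fl/fl and 4.73, 4.35 and 2.84 CPM in STAT5cKO BMDMs. With rmGM-CSF it had 1.56 and 1.29 CPM in STAT5fl/fl and 5.69, 4.06 and 5.81 CPM in STAT5cKO BMDMs. In 4T1 CM it had 1.56 and 1.19 CPM in STAT5fl/fl and 3.55, 3.54 and 4.43 CPM in STAT5cKO BMDMs. The genotypes were separate under all 3 treatments. The genotype difference of Lox reached 2.03 ± 0.29 in DMEM (adjusted p = 6.3e-04), 1.85 ± 0.28 after rmGM-CSF (adjusted p = 1.66e-04) and 1.48 ± 0.29 after 4T1 CM (adjusted p = 0.00184). No treatment comparison of Lox was called, with log2 fold changes between -0.41 and 0.55.

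Without mouse 112 the genotype call of Lox was lost with DMEM and 4T1 CM (adjusted p = 0.0187 and 0.0215), and without mouse 113 it was lost with DMEM, rmGM-CSF and 4T1 CM (0.0336, 0.0178 and 0.0669), with log2 fold changes of Lox between 1.30 and 2.08 in these fits. A fit to the 4T1 CM libraries alone also lost the genotype call of Lox there (1.47, adjusted p = 0.0103). Fibroblast markers, which mark a cell type known for high Lox, moved with the same genotype groups. Their summed level was 5.95 to 9.68 CPM in STAT5fl/fl and 10.95 to 18.2 CPM in STAT5cKO libraries. Pdgfrb was the highest of the 10 markers in every library, with 3.81 to 8.18 CPM in STAT5fl/fl and 5.17 to 11.1 CPM in STAT5cKO libraries. With the treatments pooled its genotypes overlapped, as did those of Col1a1 (0.161 to 0.567 and 0.425 to 3.35 CPM). Within each treatment the genotypes were separate for Pdgfrb, STAT5cKO being higher. Those of Col1a1 were separate with DMEM and rmGM-CSF, STAT5cKO being higher, and overlapped with 4T1 CM. Col1a2 (0.50 to 1.496 and 1.52 to 4.34 CPM) and Acta2 (0.146 to 0.632 and 1.0 to 2.49 CPM) were separate with the treatments pooled. Col3a1, Pdgfra, Dcn, Lum, Postn and Thy1 stayed under 1 CPM in every library. Their part in the Lox difference was not tested.

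**Figure D4:**
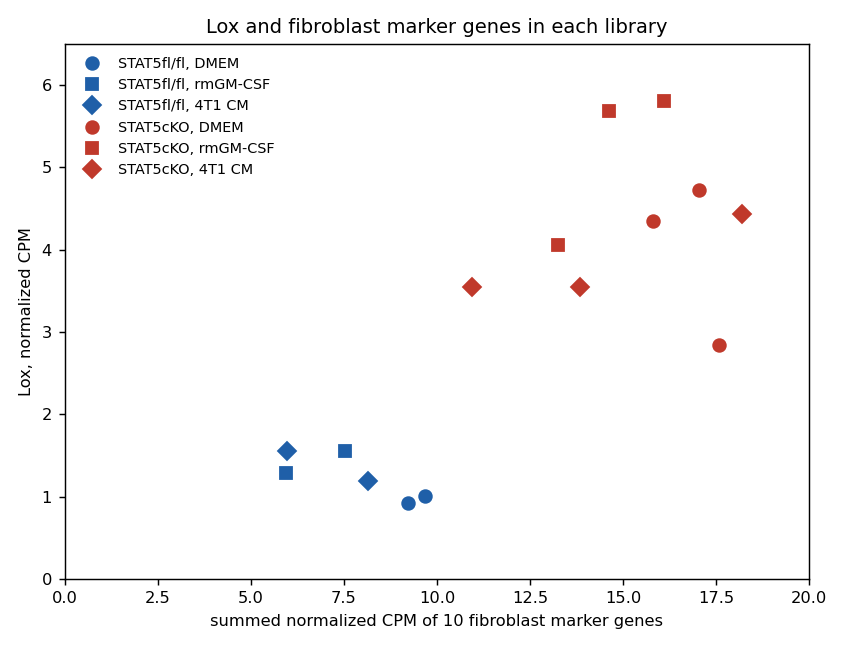
Normalized CPM of Lox (y axis) against the summed normalized CPM of 10 fibroblast marker genes (x axis) in each of the 15 libraries, colored by genotype and shaped by treatment. STAT5fl/fl libraries lie at 0.927 to 1.56 CPM of Lox and STAT5cKO libraries at 2.84 to 5.81 CPM, and the genotypes are separate on both axes.

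Among the receptors, syndecan-4 (Sdc4, ENSMUSG00000017009, GRCm38 chromosome 2, 164424247 to 164443887, minus strand), a coreceptor of integrins at focal adhesions, responded most to rmGM-CSF. In DMEM the level was 127 and 146 CPM in STAT5fl/fl and 136, 126 and 132 CPM in STAT5cKO BMDMs. With rmGM-CSF it had 965 and 1130 CPM in STAT5fl/fl and 553, 545 and 514 CPM in STAT5cKO BMDMs. With 4T1 CM it had 428 and 525 CPM in STAT5fl/fl and 292, 294 and 299 CPM in STAT5cKO BMDMs. The genotypes overlapped with DMEM, and every STAT5cKO library lay below every STAT5fl/fl library with rmGM-CSF and with 4T1 CM.

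Sdc4 rose with rmGM-CSF by 2.94 ± 0.10 in STAT5fl/fl (7.66-fold, adjusted p = 4.18e-13) and by 2.03 ± 0.08 in STAT5cKO BMDMs (4.09-fold, adjusted p = 2.63e-12), and with 4T1 CM by 1.80 ± 0.10 (3.48-fold) and 1.17 ± 0.08 (2.25-fold). Both responses were smaller without STAT5, with interactions of -0.91 ± 0.12 with rmGM-CSF (adjusted p = 1.5e-04) and -0.63 ± 0.12 with 4T1 CM (adjusted p = 0.00731). The former was called in every alternative run, and the latter was not called without mouse 113, 114, 115 or 116 (adjusted p = 0.0215, 0.0478, 0.0285 and 0.0352). Sdc4 was lower in STAT5cKO BMDMs, with log2 fold changes of -0.96 ± 0.08 with rmGM-CSF (adjusted p = 2.56e-07) and -0.69 ± 0.08 with 4T1 CM (adjusted p = 2.97e-05), whereas the difference with DMEM was -0.06 ± 0.09 (adjusted p = 0.767).

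Cd44 (ENSMUSG00000005087, GRCm38 chromosome 2, 102811141 to 102901665, minus strand), the hyaluronan receptor, rose with both treatments in both genotypes. In DMEM it had 633 and 599 CPM in STAT5fl/fl and 511, 478 and 547 CPM in STAT5cKO BMDMs. With rmGM-CSF it had 1590 and 1592 CPM in STAT5fl/fl and 1011, 1045 and 1038 CPM in STAT5cKO BMDMs. After 4T1 CM the level was 1554 and 1405 CPM in STAT5fl/fl and 1180, 1223 and 1258 CPM in STAT5cKO BMDMs. The STAT5cKO libraries lay below the STAT5fl/fl libraries under all 3 treatments, with the widest gap for rmGM-CSF.

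The response of Cd44 to rmGM-CSF was 1.37 ± 0.07 in STAT5fl/fl (adjusted p = 1.37e-10) and 1.01 ± 0.06 in STAT5cKO BMDMs (adjusted p = 7.04e-10), and that to 4T1 CM was 1.26 ± 0.07 and 1.25 ± 0.06 (adjusted p = 2.98e-10 and 1.5e-11). The genotype difference with rmGM-CSF was -0.63 ± 0.07 (adjusted p = 2.74e-06), called in every alternative. With 4T1 CM it was -0.28 ± 0.07 (adjusted p = 0.00887), and that call of Cd44 was lost when any of mice 112 to 116 was left out. Leaving out mouse 114, 115 or 116 gave an adjusted p of 0.0515, 0.024 and 0.0159. A fit to the 4T1 CM libraries alone lost this call as well (adjusted p = 0.0745). The difference was -0.20 without mouse 112 and -0.35 without mouse 113. Between the genotypes with DMEM it was -0.27 ± 0.07 (adjusted p = 0.0237), and the interaction with rmGM-CSF was -0.36 ± 0.09 (adjusted p = 0.0355). In STAT5cKO BMDMs, Cd44 was higher with 4T1 CM than with rmGM-CSF (0.24 ± 0.06, adjusted p = 0.00297), a call lost without mouse 114, 115 or 116 (adjusted p = 0.0199, 0.0155 and 0.027).

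Syndecan-1 (Sdc1, ENSMUSG00000020592, GRCm38 chromosome 12, 8771323 to 8793715, plus strand), the syndecan typical of epithelia and plasma cells, responded more to 4T1 CM. In DMEM the level was 92.4 and 69.9 CPM in STAT5fl/fl and 76.3, 78.9 and 86.4 CPM in STAT5cKO BMDMs, and with rmGM-CSF 125 and 89.2 CPM against 128, 127 and 134 CPM. With 4T1 CM it had 348 and 226 CPM in STAT5fl/fl and 346, 453 and 356 CPM in STAT5cKO BMDMs. The genotypes overlapped with DMEM and 4T1 CM, and STAT5fl/fl mouse 112 lay above mouse 113 under every treatment. Sdc1 rose with 4T1 CM by 1.82 ± 0.19 in STAT5fl/fl (adjusted p = 3.31e-07) and by 2.26 ± 0.15 in STAT5cKO BMDMs (adjusted p = 1.47e-09). With rmGM-CSF it rose by 0.69 ± 0.15 in STAT5cKO BMDMs (adjusted p = 0.0019), a call lost without mouse 114, 115 or 116 (adjusted p = 0.0216, 0.0127 and 0.0138). In STAT5fl/fl BMDMs that difference was 0.40 ± 0.19 (adjusted p = 0.102), called with the mouse as a block (0.39, adjusted p = 0.00346). The genotype difference of Sdc1 with 4T1 CM was 0.42 ± 0.16 (adjusted p = 0.094), and 0.77 without mouse 112 (adjusted p = 0.00244).

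Syndecan-3 (Sdc3, ENSMUSG00000025743, GRCm38 chromosome 4, 130792537 to 130826319, plus strand), best known from neural tissue, varied least. Its level lay between 615 and 711 CPM in STAT5fl/fl and between 492 and 723 CPM in STAT5cKO libraries over all treatments. STAT5cKO libraries lay below STAT5fl/fl libraries with DMEM and with rmGM-CSF and overlapped them with 4T1 CM. The genotype differences of Sdc3, -0.31 ± 0.08, -0.23 ± 0.08 and -0.10 ± 0.08 with DMEM, rmGM-CSF and 4T1 CM, missed the threshold (adjusted p = 0.0274, 0.0569 and 0.464). In STAT5cKO BMDMs it rose with 4T1 CM by 0.32 ± 0.07 over DMEM (adjusted p = 0.00129), a call lost without mouse 115 (0.22, adjusted p = 0.0209). It was also higher with 4T1 CM than with rmGM-CSF (0.27 ± 0.07, adjusted p = 0.0054), and without mouse 115 that difference was 0.13 (adjusted p = 0.168). Without mouse 112 or 113 it was 0.27 in both fits (adjusted p = 0.0112 and 0.0116). Both Sdc3 calls were also lost in fits to the compared libraries alone (adjusted p = 0.0113 against DMEM and 0.0177 against rmGM-CSF).

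The makeup of the syndecan mRNAs was taken as each gene's share of the 4 syndecans per exon length within a library. With DMEM, Sdc3 held 58.0% ± 0.366 (SD, n = 2) in STAT5fl/fl and 53.7% ± 1.33 (n = 3) in STAT5cKO BMDMs, and Sdc4 held 29.3% ± 1.97 and 32.4% ± 0.782. With rmGM-CSF, Sdc4 held 75.3% ± 3.11 and 63.0% ± 1.26. With 4T1 CM, Sdc4, Sdc3 and Sdc1 held 49.4% ± 7.35, 30.2% ± 1.53 and 19.9% ± 5.86 in STAT5fl/fl and 35.9% ± 2.99, 32.8% ± 1.17 and 31.0% ± 2.08 in STAT5cKO BMDMs. Sdc2 never exceeded 1.22%. The genotypes did not overlap in the Sdc4 share with any treatment, and its difference was 3.04, -12.3 and -13.6 percentage points with DMEM, rmGM-CSF and 4T1 CM. A two-sided exact permutation test of 2 against 3 libraries cannot go below p = 0.1, which each of these reached.

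**Figure D5:**
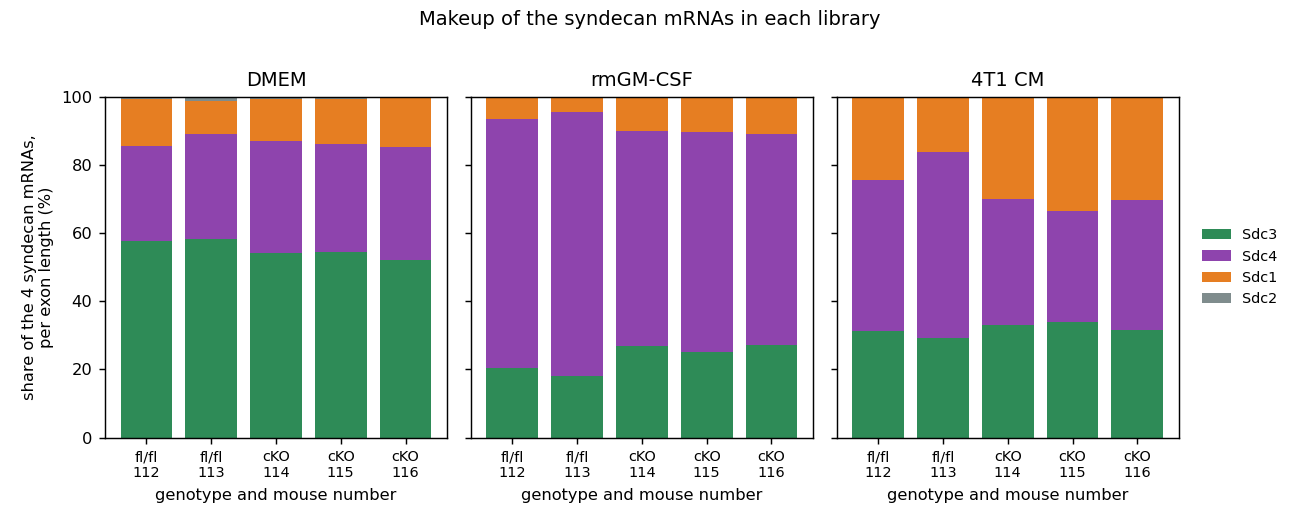
Share of Sdc1, Sdc2, Sdc3 and Sdc4 in the summed level of the 4 syndecan mRNAs per exon length (y axis, %), in each library by genotype and mouse (x axis) and by treatment (panels). Sdc3 leads with DMEM at 52.1% to 58.2%, Sdc4 with rmGM-CSF at 61.8% to 77.5%, and with 4T1 CM the Sdc1 share lies between 15.8% and 33.4%.

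Across the 15 libraries, the genes most like each member were described by the Pearson correlation of log2 CPM, where libraries of a treatment group move together. Sdc4 was closest to Cdc42ep2 (r = 0.990), Pim1 (0.985) and Cxcl3 (0.984), and Thbs1 to Zfp608 (0.991), Rrp1b (0.991) and Slc25a30 (0.989). Cd44 was closest to Prr5l (0.989), Gm16378 (0.983) and Uap1 (0.981), and Sdc1 to Map4k4 (0.981), Rcan1 (0.980) and Slc41a2 (0.979). Tnc was closest to Trim8 (0.965), Fos (0.958) and Nr4a2 (0.957), Spp1 to Atox1 (0.971), Sdf4 (0.950) and Rpn1 (0.942), and Lox to Cpsf1 (0.941), Cd72 (0.930) and Gpx1 (0.927). Vcan was closest to Plscr1 (0.924), Slc25a33 (0.912) and Dus2 (0.908), Sdc3 to Os9 (0.911), Gm49359 (0.884) and Aldh3b1 (0.884), and Fn1 to Mb21d2 (0.903), Tsen15 (0.875) and Gnb4 (0.872). Among the members, Sdc4 and Cd44 had r = 0.88, and Thbs1 had r = 0.94 with Sdc1 and 0.93 with Tnc.

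The genes that surround these members in the same pathways were counted in lists written by hand. Among 11 tested receptors of thrombospondin, osteopontin and fibronectin, of 13 listed, 4T1 CM raised 8 and lowered 1 in STAT5fl/fl BMDMs (37.4% of all tested genes called) and raised 6 and lowered 1 in STAT5cKO BMDMs (37.6%). Itga5, the fibronectin receptor subunit, rose by 2.05 ± 0.07 and 2.12 ± 0.06, and Cd47, a thrombospondin receptor, by 0.86 ± 0.08 and 0.98 ± 0.07. Between the genotypes, Cd36, also a thrombospondin receptor, was lower in STAT5cKO BMDMs, with log2 fold changes of -1.01 ± 0.15 with rmGM-CSF (adjusted p = 1.29e-04) and -1.08 ± 0.15 with 4T1 CM (adjusted p = 1.07e-04). Itga4 was higher by 0.57 ± 0.10 and 0.72 ± 0.10, and Itgav with rmGM-CSF by 0.58 ± 0.09 (adjusted p = 1.66e-04). Itga5 was higher with 4T1 CM by 0.35 ± 0.06 (adjusted p = 8.92e-04). Of these 11 genes, 2 were higher and 1 lower with rmGM-CSF (9.80% of all tested genes called), and 2 were higher and 2 lower with 4T1 CM (7.70%).

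Of 13 tested sheddases and proteases that act on these proteins, of 16 listed, 8 rose with rmGM-CSF in each genotype (28.5% and 23.5% of all tested genes called). With 4T1 CM 9 rose and 2 fell in STAT5fl/fl (37.4%), and 10 rose and 2 fell in STAT5cKO BMDMs (37.6%). Plaur, the urokinase receptor, rose with 4T1 CM by 2.64 ± 0.10 and 3.13 ± 0.08, and Adam8, a metalloprotease of myeloid cells, by 1.74 ± 0.08 and 1.56 ± 0.06. Between the genotypes with rmGM-CSF, Adam8 was higher in STAT5cKO BMDMs (0.56 ± 0.07, adjusted p = 1.71e-05) and Plaur lower (-0.50 ± 0.08, adjusted p = 2.7e-04). With 4T1 CM, Adam17, the main sheddase of many surface proteins, was higher (0.44 ± 0.06, adjusted p = 7.82e-05). Also in STAT5cKO BMDMs, Mmp9, a gelatinase that cleaves osteopontin, was higher by 1.57 ± 0.33 with rmGM-CSF (12.9 against 4.37 CPM, adjusted p = 0.00273) and by 2.36 ± 0.37 with 4T1 CM (11.6 against 2.25 CPM, adjusted p = 3e-04). Plau, which encodes urokinase, was lower, with log2 fold changes of -0.79 ± 0.11 and -0.66 ± 0.11. The genotype differences of this list were 2 higher and 3 lower with rmGM-CSF (9.80% of all tested genes called) and 2 higher and 1 lower with 4T1 CM (7.70%).

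Of 7 tested proteoglycan core proteins, of 18 listed, 3 rose with 4T1 CM in STAT5fl/fl (37.4% of all tested genes called) and 4 in STAT5cKO BMDMs (37.6%), among them Srgn, the proteoglycan of secretory granules, by 2.59 ± 0.10 and 2.25 ± 0.08. Between the genotypes 1 of the 7 was called with rmGM-CSF (9.80% of all tested genes called) and 1 with 4T1 CM (7.70%). In STAT5cKO BMDMs, Srgn was lower with rmGM-CSF (-0.47 ± 0.08, adjusted p = 7.29e-04) and Gpc1, a glypican, higher with 4T1 CM (0.92 ± 0.22, adjusted p = 0.00804). Of 14 tested heparan sulfate genes, of 19 listed, 4T1 CM raised 4 and lowered 4 in STAT5fl/fl (37.4%) and raised 5 and lowered 4 in STAT5cKO BMDMs (37.6%). Extl3, a chain-initiating transferase, rose by 0.93 ± 0.08 and 0.91 ± 0.07, and Ndst2, a sulfotransferase, fell by 0.97 and 1.14 on the log2 scale. Between the genotypes with rmGM-CSF, Extl3 was higher in STAT5cKO BMDMs (0.56 ± 0.08, adjusted p = 5.07e-05) and Glce, the glucuronic acid epimerase, lower (-0.49 ± 0.08, adjusted p = 2.01e-04). Xylt2, which starts the sugar chains of proteoglycans, was higher in STAT5cKO BMDMs by 0.60 ± 0.11 with rmGM-CSF (adjusted p = 8.59e-04) and 0.56 ± 0.11 with 4T1 CM (adjusted p = 0.00209). The genotype calls of this list were 2 higher and 2 lower of 14 with rmGM-CSF (9.80%) and 1 higher of 14 with 4T1 CM (7.70%).

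Of 7 tested hyaluronan genes, of 16 listed, 1 was higher and 2 were lower with 4T1 CM in both genotypes, where 37.4% and 37.6% of all tested genes were called. Cemip2, a cell surface protein linked to hyaluronan breakdown, rose by 3.15 ± 0.10 in STAT5fl/fl and 2.85 ± 0.08 in STAT5cKO BMDMs, and Hyal1 and Hyal2, both hyaluronidases, fell by 1.40 and 0.58 in STAT5fl/fl BMDMs on the log2 scale. The scavenger receptor Stab1, which can take up hyaluronan, was lower in STAT5cKO BMDMs with DMEM (-0.58 ± 0.11, adjusted p = 0.00419). Stab1 was the 1 related gene of any list called between the genotypes with DMEM, where 2.49% of all tested genes were called. Between the genotypes with rmGM-CSF 1 of the 7 was called, where 9.80% of all tested genes were called. It was Cemip2, lower in STAT5cKO BMDMs (-0.37 ± 0.09, adjusted p = 0.0096).

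Of 8 tested matricellular and adhesive glycoproteins, of 27 listed, 4T1 CM raised 4 in STAT5fl/fl BMDMs (37.4%) and raised 3 and lowered 1 in STAT5cKO BMDMs (37.6%). Ccn2, a growth factor-binding matricellular protein, was the gene that fell (0.465 against 1.38 CPM, adjusted p = 0.00606). Tgfbi, an integrin-binding matrix protein, rose with 4T1 CM by 4.10 ± 0.13 and 3.98 ± 0.10. Comp and Ecm1 were higher in STAT5cKO BMDMs with 4T1 CM by 1.06 ± 0.20 (adjusted p = 0.00182) and 0.57 ± 0.11 (adjusted p = 0.00195). They were the 2 of the 8 called there, where 7.70% of all tested genes were called. Between the genotypes with rmGM-CSF 1 of the 8 was called, against 9.80% of all tested genes. This gene was Sparc, a collagen-binding matricellular protein, at 2.02 CPM in STAT5cKO and 0.147 CPM in STAT5fl/fl BMDMs (adjusted p = 0.00302), the latter near the floor of detection. Of 8 tested cytoplasmic partners of CD44 and the syndecans, of 10 listed, Ezr and Msn, which encode the membrane linkers ezrin and moesin, rose with both treatments in both genotypes by 0.35 to 0.94. Nf2, which encodes merlin, was higher in STAT5cKO BMDMs with 4T1 CM (0.48 ± 0.10, adjusted p = 0.00463). Of the lysyl oxidase family 1 of 4 was tested, Loxl3, which was lower with rmGM-CSF in STAT5fl/fl (-0.61 ± 0.15, adjusted p = 0.00354) and STAT5cKO BMDMs (-0.43 ± 0.12, adjusted p = 0.00826).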

How the data were processed

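Counts per gene were deposited by the authors as a table of 55385 Ensembl genes by 15 libraries, made with Trimmomatic 0.33, HISAT2 2.1.0 on GRCm38 and featureCounts 1.6.2 with strand and the Ensembl 99 annotation. The file header names 20 libraries, of which 5 are not analysed here. Symbols were matched for 55144 genes. Total counts were 16016736 to 22883108 per library (median 21379480), and floors cover counting error only.

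From these counts, 13005 genes were tested, those that exceeded a CPM of 1 in 2 or more libraries. Libraries were scaled by relative log expression in edgeR 4.0.16 (R 4.3.3), with factors of 0.945 to 1.08, and a model of the 6 groups was fitted with the quasi-likelihood F test. P-values were adjusted by Benjamini-Hochberg over all tested genes and called under 0.01. Which test of the edgeR framework the study applied is not given in the sources used here. Libraries of a group were taken as biological replicates from different mice. The model has no term for the mouse, so libraries of the same mouse entered it as independent. Its p-values rest on a spread pooled over all 6 groups. The pairing of treatments within a mouse enters only the runs with the mouse as a block. The fits and calls were tested on simulated data drawn without a mouse effect, so this test does not cover libraries of a mouse that vary together.

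The 10 members and all gene lists were chosen with earlier results of these data known. Every member is named, with the 3 genes most like it, and genes of the related lists were taken from the up to 3 called per comparison with the smallest adjusted p, not all of which are given. Mmp9, ranked lower with rmGM-CSF, is named there because 4T1 CM selects it, and Ccn2, outside this rule, was chosen after its values were seen. No p-value was adjusted over a list. Alternatives were TMM scaling, other filters, the likelihood ratio test, DESeq2 1.42.0, a threshold of 0.05, fits to the compared libraries alone, leaving out each mouse, and the mouse as a block (limma 3.58.1 voom for genotype). Libraries of the same mouse number deviated together, with correlations of 0.0926 to 0.213 in STAT5fl/fl and 0.0548 to 0.214 in STAT5cKO BMDMs, and the number was read as the animal from the labels.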

Additional observations from a re-analysis of the deposited data

Results flagged for a closer look

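The response of 2 of the 10 genes was called different between the genotypes by the test of the interaction itself. Of all tested genes, 3.11% were called with rmGM-CSF and 1.27% with 4T1 CM. For Thbs1, the log2 fold change after rmGM-CSF over DMEM was higher in STAT5cKO than in STAT5fl/fl BMDMs by 1.12, and that for 4T1 CM by 1.15. For Sdc4 the difference between the responses was -0.91 for rmGM-CSF and -0.63 for 4T1 CM, the STAT5cKO response being smaller. Of these calls, only that of Sdc4 with rmGM-CSF held in every alternative run. Both interactions rest on the same DMEM libraries.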

How the results depend on the processing

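Of 1406 values of single genes under another setting, 1289 kept their direction and their side of the threshold, 50 passed it in addition, 46 no longer passed and 21 changed sign. With DMEM, the genotype count of 2 called members became 4 with DESeq2, without a filter on low counts and at an adjusted p under 0.05, and with 4T1 CM the count of 5 became 2 in a fit to those libraries alone. Leaving out 1 mouse gave 0 to 2 members with DMEM, 2 to 4 with 4T1 CM, 1 to 2 for the interaction with rmGM-CSF and 0 to 1 for that with 4T1 CM. Values that changed sign were not called in any setting. Sdc1 in the genotype comparison with DMEM was 0.0028 with the replicate block as a random effect, and -0.20 to 0.20 without 1 mouse. Without 1 mouse, the genotype difference was -0.15 to 0.049 for Sdc4 with DMEM and -0.64 to 0.044 for Fn1 with rmGM-CSF. The response was -0.35 to 0.16 for Lox to 4T1 CM in STAT5cKO BMDMs, and to rmGM-CSF in STAT5fl/fl BMDMs -0.043 to 0.22 for Fn1, -0.081 to 0.031 for Sdc3 and -1.63 to 1.02 for Tnc. The interaction with 4T1 CM was -0.058 to 0.023 for Cd44, -0.27 to 0.14 for Fn1 and -1.02 to 0.11 for Tnc, and that with rmGM-CSF -0.46 to 0.067 for Lox, -0.036 to 0.078 for Spp1 and -0.42 to 2.23 for Tnc. The cause was not tested. With the mouse as replicate block, 9 members were called for 4T1 CM against DMEM in STAT5cKO and 7 in STAT5fl/fl BMDMs, where Fn1 came in addition, and over all genes the interaction with 4T1 CM had 302 calls in place of 165. Beyond the calls given with Fn1, Sdc1, Spp1 and Vcan, the pairing changed no other call. Over all genes, 324 calls between the genotypes with DMEM became 608 with the likelihood ratio test, 557 with DESeq2 and 910 at an adjusted p under 0.05, and 165 for the interaction with 4T1 CM became 332, 363 and 423. The 1001 genotype calls with 4T1 CM became 280 in a fit to those libraries alone. At an adjusted p under 0.05, 1275 and 1001 genotype calls with rmGM-CSF and 4T1 CM became 2145 and 1957, and 404 for the interaction with rmGM-CSF became 622. Without mouse 113 the genotype calls fell to 47, 546 and 334 with DMEM, rmGM-CSF and 4T1 CM and the interaction calls to 134 and 24, the lowest over the mice left out, and without mouse 115 the 3053 calls for rmGM-CSF in STAT5cKO BMDMs fell to 1833. In STAT5fl/fl BMDMs the 3704, 4867 and 3968 treatment calls fell to 1736, 2671 and 1696 without mouse 113. With 2 STAT5fl/fl mice, leaving out 1 leaves a lone library that is assumed to vary like the other groups. Tnc and Lox had as few as 4 and 22 counts in a library. Between the genotypes with DMEM, the standard errors were widest for Tnc and Vcan (0.49 and 0.48), against 0.29 for Lox.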
